A study of Ovis aries with 9 samples.

Results

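The genes examined here encode the proteasome of sheep liver: the rings of its catalytic core, the ATPases and other subunits of the particle that feeds it, and the chaperones that help build that particle. They were taken as every gene of the deposited table named PSMA, PSMB, PSMC or PSMD with a number, leaving out PSMB8, PSMB9 and PSMB10, the catalytic subunits that interferon induces. This gave 36 of 21257 genes. Liver RNA came from male Tan sheep, 5 months old and 30 in all, fed a basal diet (control) or that diet with 1% or 2% succinate, a tricarboxylic acid cycle intermediate, for 60 days after a pretrial period of 10 days. Each group had 5 stalls of 2 sheep, and 3 libraries per group were analysed. Nothing ties a library to one animal or stall, so the p-values below measure the spread between libraries, part of which may be technical.

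The proteasome is the protease that degrades most short-lived and misfolded proteins of the cytosol and nucleus once ubiquitin chains mark them. Its core is a barrel in which outer alpha rings form a gate and inner beta rings carry the active sites. A regulatory particle caps the barrel: a ring of ATPases unfolds the substrate and threads it in, while non-ATPase subunits bind the ubiquitin chain and cut it off. In liver this pathway turns over regulators of metabolism and clears secretory proteins rejected by the endoplasmic reticulum.

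Levels are in the FPKM the authors deposited, fragments counted per length of a gene's model and per size of the library. They allow levels to be compared between genes as far as the authors' gene lengths hold. Recovered reads ranged from 13818648 to 18172528 per library. Hepatocyte markers were abundant, with a median of 1360 to 2330 FPKM over 14 genes in each library, and muscle markers had a median of 0 to 0.0621 FPKM, with the muscle creatine kinase gene CKM at 0 throughout. The treatment label places library 3 of the 1% group at 1%, but its title puts 2% in brackets. Here the treatment label was followed, and for the differences that lean on this library the values without it, or with it at 2%, are also given.

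Of the 36 genes, 34 passed the filter of at least 1 FPKM in at least 3 of 9 libraries. Those left out were PSMA8, the alpha subunit known from mouse testis, and PSMB11, the beta subunit of the thymus. PSMA8 was listed at 0 to 0.233 FPKM, with 31 reads over all libraries. PSMB11 was listed at 0.0891 FPKM in control library 2 and 0.0510 in library 2 at 2%, with 3 reads in all, and at 0 in the other libraries. Both tissue-restricted subunits were thus near 0 in liver. Among the 34 are also PSMD5, PSMD9 and PSMD10, which are assembly chaperones of the regulatory particle and not part of the finished enzyme.

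The 34 genes were abundant and close to one another in level. Their median was 41.6 FPKM against 6.77 over all 11944 tested genes, and 30 of them lay above the upper quartile of tested genes at 16.5 FPKM. Highest was PSMB1 at a mean of 79.2 FPKM over 9 libraries and lowest PSMD10 at 8.64, a ratio of 9.17. Without the chaperones the ratio was 5.60. Core and regulatory subunits stood at similar levels, with medians of 43.9 FPKM for 7 alpha, 50.4 for 7 beta, 37.6 for 6 ATPase and 41.5 for 11 non-ATPase genes, while the 3 chaperones had a median of 12.7. The summed level of the core genes (alpha and beta) was 1.05 to 1.11 times that of the more numerous ATPase and non-ATPase genes in every library. These sums are not levels per gene. Ordered by level, the genes form 33 neighbouring pairs, and in 31 of these the order changed between libraries. The exceptions were PSMD1 above PSMD14 and PSMD5 above PSMD10, which held in 9 of 9.

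**Figure D1:**
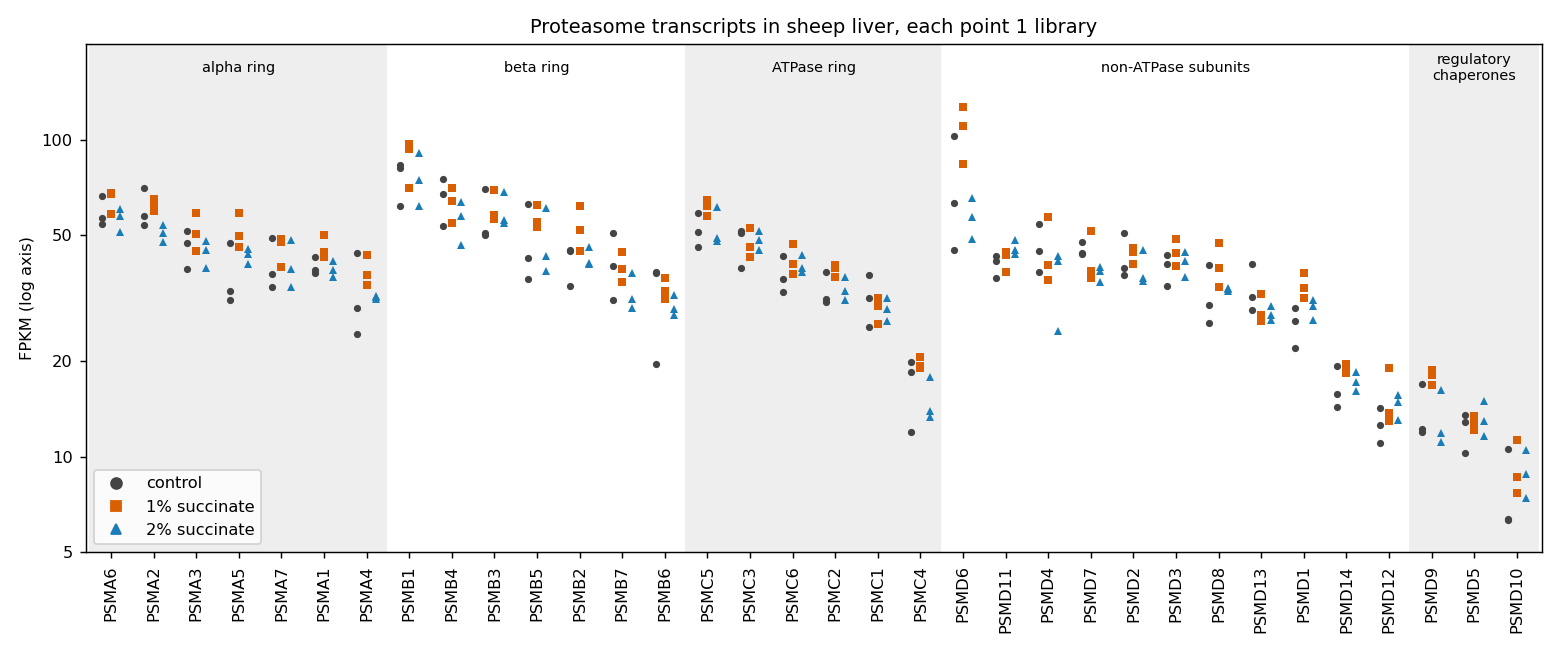
FPKM on a log axis of the 34 tested proteasome genes, grouped by role and ordered by mean level, with 1 point per library for 3 control, 3 1% succinate and 3 2% succinate libraries. Most genes lie between 30 and 60 FPKM, PSMD6 has the widest scatter, and PSMC4, PSMD12, PSMD14 and the chaperones sit lowest.

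The alpha ring holds 7 tested genes, from PSMA6 at a mean of 59.9 FPKM to PSMA4 at 34.3. PSMA6 stood at 66.5, 56.6 and 54.0 FPKM in controls, 67.2, 58.0 and 67.8 at 1% and 51.1, 60.5 and 57.3 at 2%. Its groups overlapped in each comparison. PSMA5 was at 47.3, 31.3 and 33.2 FPKM in controls, at 49.8, 45.7 and 58.6 at 1% and at 40.6, 45 and 43.6 at 2%. Control 1 lay within the 1% range while controls 2 and 3 lay below every dosed library, and the log2 difference at 1% was 0.47 (SE 0.19, adjusted p = 0.315, limma), or 0.37 without library 3 at 1%. PSMA2 stood at 70.5, 53.8 and 57.5 FPKM in controls, at 59.5, 65.0 and 62.6 at 1% and at 50.9, 47.4 and 53.7 at 2%. Each 2% library was below all others for this gene, with log2 differences of -0.25 from control (95% interval -0.61 to 0.11) and -0.29 from 1% (-0.66 to 0.07), neither of which passed.

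The beta ring carries the active sites on PSMB5 (chymotrypsin-like), PSMB6 (caspase-like) and PSMB7 (trypsin-like), whereas PSMB1, PSMB2, PSMB3 and PSMB4 are not catalytic. PSMB5 stood at 62.7, 36.3 and 42.2 FPKM in controls, at 54.9, 53.0 and 62.1 at 1% and at 42.9, 60.8 and 38.6 at 2%. PSMB6 was at 37.8, 19.6 and 38.2 in controls, 36.6, 31.5 and 33.3 at 1% and 28.0, 32.4 and 29.3 at 2%. PSMB7 was at 50.8, 31.3 and 39.9 in controls, 44.1, 39.2 and 35.6 at 1% and 31.4, 38.0 and 29.4 at 2%. For all 3 catalytic genes a control library (1 or 3) was the highest of the 9, control 2 was the lowest control, and the groups overlapped. The log2 differences at 1% were 0.30 (-0.24 to 0.84) for PSMB5, 0.14 (-0.41 to 0.68) for PSMB6 and -0.01 (-0.47 to 0.44) for PSMB7, with 95% intervals in brackets. At 2% they were 0.02 (-0.52 to 0.56), -0.03 (-0.58 to 0.51) and -0.28 (-0.73 to 0.18). PSMB1, the most abundant gene of the set, stood at 83.1, 61.7 and 81.1 FPKM in controls, at 93.1, 70.3 and 96.6 at 1% and at 74.3, 90.5 and 61.7 at 2%.

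The ATPase ring holds 6 genes, led by PSMC5 at a mean of 55.3 FPKM, with PSMC4 lowest at 17.2. PSMC5 stood at 58.5, 45.9 and 51.3 FPKM in controls, at 64.3, 57.3 and 61.6 at 1% and at 49.1, 61.5 and 48.0 at 2%. PSMC4 was at 19.9, 12 and 18.5 in controls, 20.7, 19.4 and 19.0 at 1% and 17.9, 14.0 and 13.4 at 2%. Its 2% libraries all lay below its 1% libraries, with a log2 difference of -0.37 (SE 0.20, adjusted p = 0.705, limma), or -0.40 without library 3 at 1%. PSMC3 was level across diets, at 50.7, 39.3 and 51.6 FPKM in controls, 42.6, 52.8 and 45.9 at 1% and 48.3, 51.5 and 45 at 2%. PSMC1 stood at 37.4, 25.6 and 31.7 in controls, 31.7, 26.2 and 29.9 at 1% and 26.8, 31.8 and 29.2 at 2%. Of the 6 log2 differences at 1%, that of PSMC1 alone was below 0 (-0.09, and 0.06 after median-ratio scaling).

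Among the 11 non-ATPase subunits, PSMD6 of the lid stood apart in spread. It was at 103, 45 and 62.9 FPKM in controls, at 110.2, 83.9 and 127 at 1% and at 48.7, 65.5 and 56.9 at 2%. The 1% and 2% libraries did not overlap, while the controls reached from below the 2% libraries into the 1% range. The log2 difference was 0.66 at 1% against control (SE 0.29, 95% interval 0.00 to 1.32, adjusted p = 0.336), and -0.89 for 2% against 1% (-1.54 to -0.23, adjusted p = 0.581), so neither passed in limma. Without library 3 at 1% these differences were 0.53 and -0.75, and with that library placed at 2% the second was -0.47. Its highest value was 2.82 times its lowest, against 1.31 to 2.28 times for the other 33 genes. In the sheep reference PSMD6 overlaps ATXN7, which stood at a mean of 3.58 FPKM, and strand use in counting is not given.

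PSMD1, a scaffold of the base, stood at 29.4, 26.8 and 22 FPKM in controls, at 34.2, 31.6 and 38.0 at 1% and at 27.1, 31.2 and 29.9 at 2%. All 1% libraries lay above all controls (log2 difference 0.40, SE 0.16, adjusted p = 0.315, limma, and 0.33 without library 3 at 1%) and above all 2% libraries (2% against 1% -0.23). PSMD4, a ubiquitin receptor, was at 54.3, 38.3 and 44.5 FPKM in controls, 56.9, 40.2 and 36.1 at 1% and 41.5, 43.1 and 25 at 2%. Library 3 at 2% held the lowest value of this gene. PSMD14, the deubiquitinase that removes the chain, stood at 15.8, 19.3 and 14.3 FPKM in controls, at 19.5, 19.6 and 18.3 at 1% and at 16.1, 17.3 and 18.5 at 2%. Control 2, where 18 of the 34 genes had their lowest value, was the highest control for PSMD14.

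PSMD11, a lid subunit, was the least variable of the set within groups, at 43.0, 41.3 and 36.7 FPKM in controls, 44.1, 38.3 and 43.3 at 1% and 43.5, 44.7 and 48.2 at 2%. All 2% libraries lay above all controls by a small margin (log2 difference 0.17, SE 0.15, adjusted p = 0.952, limma). PSMD7, which pairs with PSMD14 in the lid, stood at 47.5, 43.7 and 43.6 FPKM in controls, at 51.5, 36.6 and 38.6 at 1% and at 35.7, 39.7 and 38.4 at 2%. Here the 2% libraries were below the controls (-0.24, SE 0.17, adjusted p = 0.950). PSMD13, another lid subunit, was at 40.6, 29.1 and 31.9 FPKM in controls, 32.7, 26.7 and 28.0 at 1% and 29.8, 28.1 and 27.1 at 2%. PSMD12, also of the lid, was the lowest of the 11 at 14.3, 11 and 12.6 in controls, 13, 13.7 and 19.1 at 1% and 14.9, 13.1 and 15.6 at 2%. Groups overlapped for both.

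The assembly chaperones PSMD5, PSMD9 and PSMD10 each bind ATPase subunits before the regulatory particle is complete. PSMD9 stood at 17.0, 12.3 and 12 FPKM in controls, at 18.7, 16.9 and 18.1 at 1% and at 11.1, 16.2 and 11.9 at 2%. Its 1% libraries lay above its 2% libraries (2% against 1% log2 difference -0.44, SE 0.19, adjusted p = 0.650, limma, and -0.43 without library 3 at 1%), and control 1 lay among the 1% libraries. PSMD5 was at 13.5, 10.3 and 12.8 FPKM in controls, 13.4, 12.1 and 12.8 at 1% and 11.7, 15.0 and 13 at 2%. PSMD10 was at 10.6, 6.33 and 6.37 in controls, 7.71, 8.62 and 11.3 at 1% and 8.85, 7.43 and 10.5 at 2%, with overlapping groups. PSMD10 overlaps ATG4A in the reference, a gene of similar level (6.54 FPKM), so its values are uncertain.

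**Figure D2:**
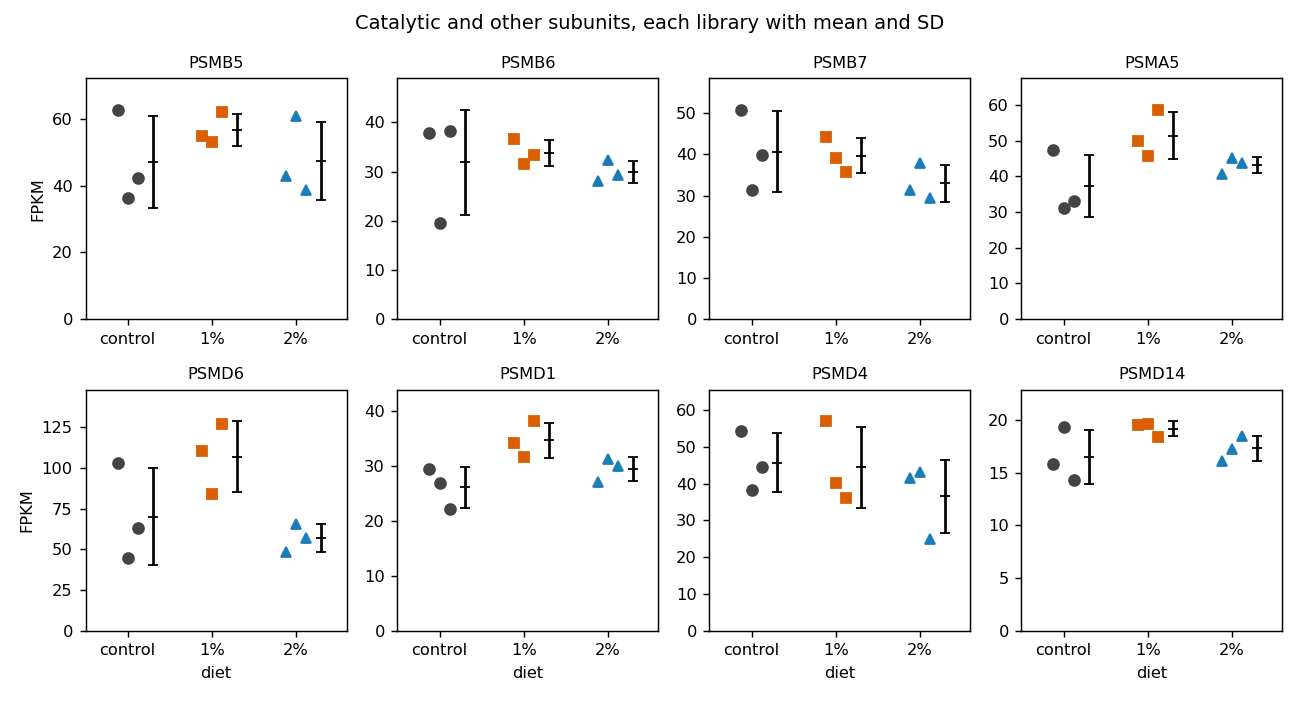
FPKM of 8 proteasome genes by diet, with 1 point per library and, beside the points, the group mean with its SD (n = 3). Control 1 lies near the top and control 2 near the bottom for PSMB5 and PSMD6, and the 1% libraries of PSMD1 lie above the controls.

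High and low values of the 34 genes tended to fall in the same libraries. Control 1 held the highest value of 10 of the 34 genes and library 3 at 1% that of 13, whereas control 2 held the lowest value of 18. The median deviation of the 34 genes from their own means on the log2(FPKM + 1) scale was 0.196, -0.247 and -0.107 in controls, 0.157, -0.018 and 0.186 at 1% and -0.112, 0.060 and -0.085 at 2%. Controls thus spanned the range of both dosed groups. The same median over all tested genes was 0.210, -0.013 and -0.024 in controls, 0.001, -0.114 and -0.105 at 1% and -0.016, 0.023 and 0.011 at 2%. Control 1 was therefore high for the genome as a whole. Taken relative to all tested genes, the proteasome level was -0.014, -0.234 and -0.083 in controls, 0.156, 0.095 and 0.291 at 1% and -0.096, 0.036 and -0.096 at 2%, so that the 1% libraries lay above the others on this scale.

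The FPKM of the 36 genes summed to 1331 ± 217 in the control libraries, against 1492 ± 118 at 1% and 1284 ± 101 at 2% (mean ± SD, n = 3). The sums in controls were 1567, 1139 and 1286, at 1% 1533, 1359 and 1583 and at 2% 1226, 1400 and 1226. Groups overlapped. Proteasome genes took 0.163% to 0.225% of the reads of a library. Counting error was small beside the spread: a tested gene had 140 to 3418 reads per library, the median coefficient of variation expected from counting was 3.6%, and that within groups was 13.1%, against 21.2% for all tested genes.

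**Figure D3:**
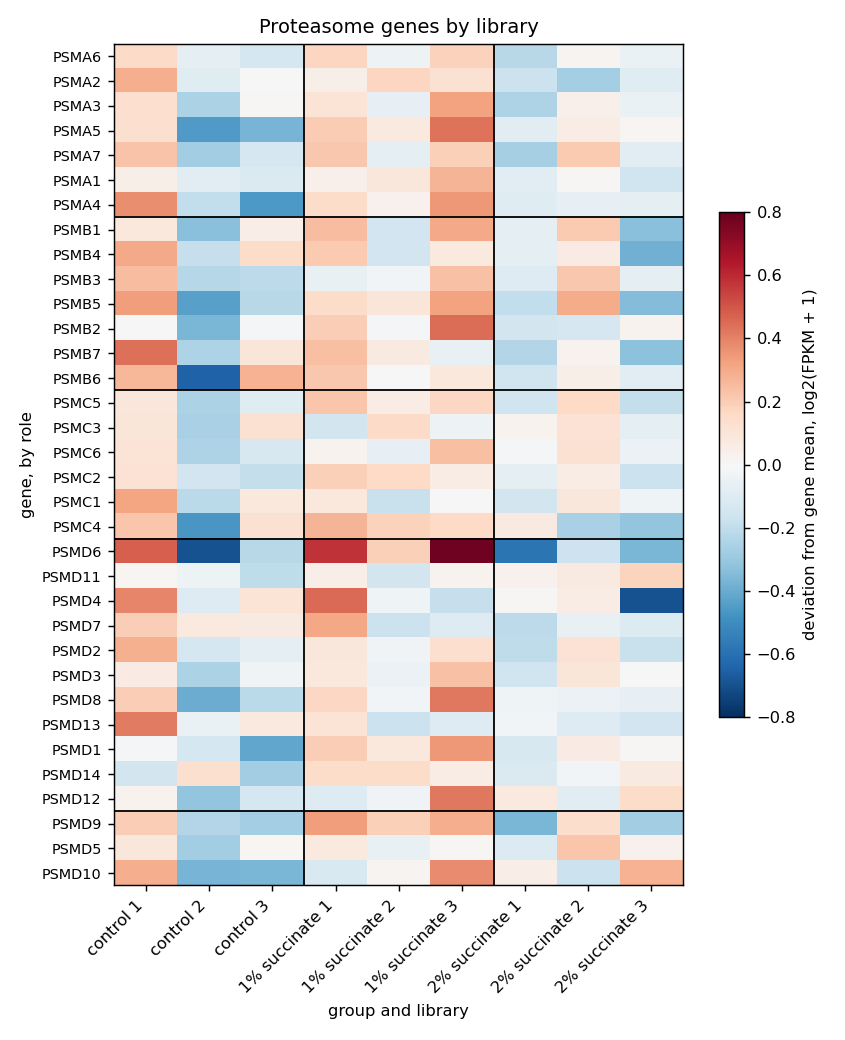
Deviation of each tested proteasome gene from its own mean on the log2(FPKM + 1) scale (red above, blue below) in the 9 libraries, with genes grouped by role as rows. Control 1 and libraries 1 and 3 at 1% are mostly red, control 2 and libraries 1 and 3 at 2% mostly blue, and PSMD14 and PSMD11 depart from the common pattern.

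As a description, the median Pearson correlation between pairs of the 34 genes over 9 libraries was 0.53 (561 pairs), against 0.14 for all pairs of tested genes. For deviations from group means it was 0.57 against 0.13, so the shared pattern was also present within diets. All these points share the libraries and their scaling. Against the median of the other members, PSMA7 (r = 0.94), PSMB5 and PSMD6 (0.92 each), PSMD8 (0.91) and PSMC5 (0.89) were closest, over 9 libraries. At the other end stood PSMD14 (0.02), PSMD11 (0.23), PSMC3 (0.24), PSMD7 (0.32), PSMD13 (0.41) and PSMD4 (0.43). Subunits of the lid stood at both ends of this order. On deviations from group means PSMD14 was again lowest (-0.42), whereas PSMD13 was at 0.75.

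**Figure D4:**
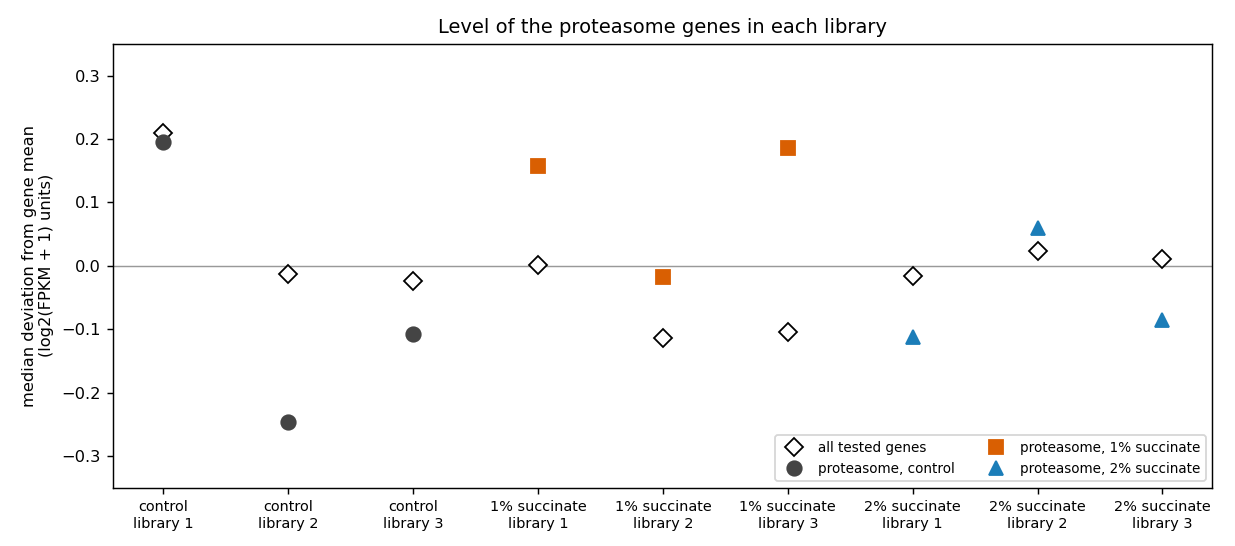
Median deviation from the gene mean, in log2(FPKM + 1) units, of the 34 proteasome genes (filled symbols) and of all 11944 tested genes (open diamonds) in each library. Proteasome genes lie above all genes in the 3 libraries at 1% (by 0.095 to 0.291) and below them in the 3 controls.

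For 1% succinate against control, 28 of 34 proteasome genes had a positive log2 difference, with a median of 0.17. All tested genes had a median of -0.14, so the proteasome median lay 0.30 above it. Median-ratio scaling brought the median of all genes to -0.01 and the split of the 34 to 33 higher and 1 lower, and quantile scaling gave 32 and 2. None of the differences passed: 0 of 34 had an adjusted p under 0.05 with limma or with voom on recovered reads, where 0.0167% of all tested genes did with limma. At an unadjusted p under 0.05 there were 3, all higher, namely PSMD1, PSMA5 and PSMD6, and voom also gave 3. Among all tested genes 14.9% were past that threshold, 2.11% higher and 12.8% lower. A positive difference was seen for 31.4% of all tested genes and a negative one for 68.6%. All 7 alpha genes, 5 of 7 beta genes, 5 of 6 ATPase genes, 8 of 11 non-ATPase subunits and 3 of 3 chaperones were above control, with medians of 0.17, 0.14, 0.19, 0.16 and 0.24. Those below were PSMB4 (-0.04), PSMB7 (-0.01), PSMC1 (-0.09), PSMD4 (-0.05), PSMD7 (-0.10) and PSMD13 (-0.20), of which 4 turned positive after quantile scaling and 5 after median-ratio scaling. Because the genes share libraries, these counts are not independent observations.

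The size of the 1% difference and the counts of genes varied with single libraries. Groups did not overlap for 1 gene, PSMD1, which was higher, where 2.28% of all tested genes were higher and 15.6% lower without overlap. Leaving a library out can only keep or raise the count of genes without overlap. Without control 1 there were 19 such genes, all higher, where 14.6% of all tested genes were higher and 19.8% lower without overlap. Without library 2 at 1% there were 10, all higher (5.47% of all tested genes higher, 20.5% lower), and without library 1 at 1% there were 2 higher and 2 lower (5.27% and 31.2%). Without control 2 there were 2 higher and 1 lower (3.44% and 24.3%), and without library 3 at 1% there were 3, all higher (3.38% and 18.6%). The median log2 difference was 0.26 without control 1, 0.07 without control 2, and 0.09 with library 3 at 1% left out or placed at 2%. With a library left out, the proteasome median lay 0.211 to 0.343 above that of all tested genes, against 0.304 with all 9 libraries. The count at an unadjusted p under 0.05 was 8 without control 1, all higher. In that fit 6.03% of all tested genes were higher and 9.68% lower at this threshold. The count was 0 without control 2, control 3, library 1 at 1%, library 3 at 1% or library 3 at 2%, and 1 without library 1 at 2%. In these fits 0.807% to 3.0% of all tested genes were higher and 6.34% to 17.2% lower. Summed markers of T and NK cells did not overlap between controls and dosed libraries. Sums for hepatocytes, cholangiocytes, stellate cells and fibroblasts, B and plasma cells, Kupffer cells and endothelial cells overlapped between all groups. None of these was tested. For T and NK cells the 10 measured genes summed to 41.2 to 56.7 FPKM in controls, 22.2 to 30.4 at 1% and 24.5 to 35.9 at 2%, with none at 0 in all libraries. The 14 hepatocyte markers summed to 48610 to 72630 FPKM in controls, 71260 to 73720 at 1% and 68240 to 79640 at 2%. Their median was 2080 to 2170 FPKM in controls, 1360 to 2110 at 1% and 1590 to 2330 at 2%, so the median did not follow the sum. The 5 cholangiocyte markers summed to 10.3 to 42.8 FPKM in controls, 20 to 136 at 1% and 14.1 to 37 at 2%. Their median was 2.16 to 5.49 FPKM in controls, 2.43 to 4.19 at 1% and 2.35 to 7.5 at 2%. The 7 stellate cell and fibroblast markers summed to 58.4 to 72.3 in controls, 60.2 to 71 at 1% and 54.9 to 194 at 2%. In bulk tissue, fewer cells of a type and less RNA per cell cannot be told apart. The 10 most abundant genes took 15.1% to 18.7% of reads in controls, 18.7% to 24.7% at 1% and 20.3% to 22.2% at 2%. The part of these measures in the proteasome values of any comparison was not tested.

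At 2% succinate against control, 18 of 34 proteasome genes were above control and 16 below, with a median log2 difference of 0.01 (0.07 above that of all genes, of which 39.3% were above control and 60.7% below). After median-ratio scaling the split was 22 and 12, after quantile scaling 23 and 11. Single libraries turned it either way: it was 28 and 6 without control 1, 7 and 27 without control 2, 14 and 20 without control 3, and 11 and 23 without library 2 at 2%. With limma 0 of 34 passed, against 0.0502% of all tested genes, 0 had an unadjusted p under 0.05 (5.18% of all genes did, 1.06% higher and 4.12% lower), and voom gave 0 at both thresholds. The smallest adjusted p was 0.950. Differences ranged from -0.34 for PSMD4 (95% interval -0.92 to 0.24) to 0.23 for PSMA5 (-0.20 to 0.66). With standard errors of 0.147 to 0.294, the intervals are wide beside the differences. Groups did not overlap for PSMD11, higher, and for PSMA2 and PSMD7, lower, where 2.6% and 8.02% of all tested genes did so. Leaving a library out can only keep or raise these counts. There were 9 higher and 2 lower without control 1 (16.0% and 11.5% of all tested genes), and 2 and 8 without control 2 (4.17% and 15.7%). Without library 1 at 2% there were 2 and 3 (5.7% and 13.3%), and without library 2 at 2% there were 2 and 4 (7.28% and 15.5%). By role the medians were -0.03 for alpha, 0.00 for beta, 0.02 for ATPase and 0.05 for non-ATPase genes and 0.11 for the chaperones.

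Between the doses, 31 of 34 genes were lower at 2% than at 1%, where 38.2% of all tested genes were lower and 61.8% higher. The median log2 difference was -0.19, which lay -0.27 from that of all genes. Again 0 of 34 passed with limma or voom, and 0.0% of all tested genes passed with limma. PSMD6 and PSMD9 had an unadjusted p under 0.05 (0.0136 and 0.041), both lower, and voom also gave 2 genes. Of all tested genes 7.48% had such a p, 6.2% higher and 1.29% lower. Groups did not overlap for 10 genes, all lower at 2%, where 3.33% of all tested genes were lower and 11.0% higher: PSMA1, PSMA2, PSMA4, PSMA5, PSMC2, PSMC4, PSMD1, PSMD6, PSMD8 and PSMD9. The alpha and beta rings were both lower in 7 of 7 genes, with medians of -0.22 and -0.20. Leaving a library out can only keep or raise the count of 10, whereas moving one can lower it. There were 18 lower genes without library 2 at 2% (11.3% of all tested genes lower, 20.8% higher), 17 without library 2 at 1% (8.1% and 15.6%), and 4 with library 3 at 1% placed at 2% (3.68% and 6.75%). In the last case the median difference was -0.07. This comparison and that of 1% with control share the 1% libraries.

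**Figure D5:**
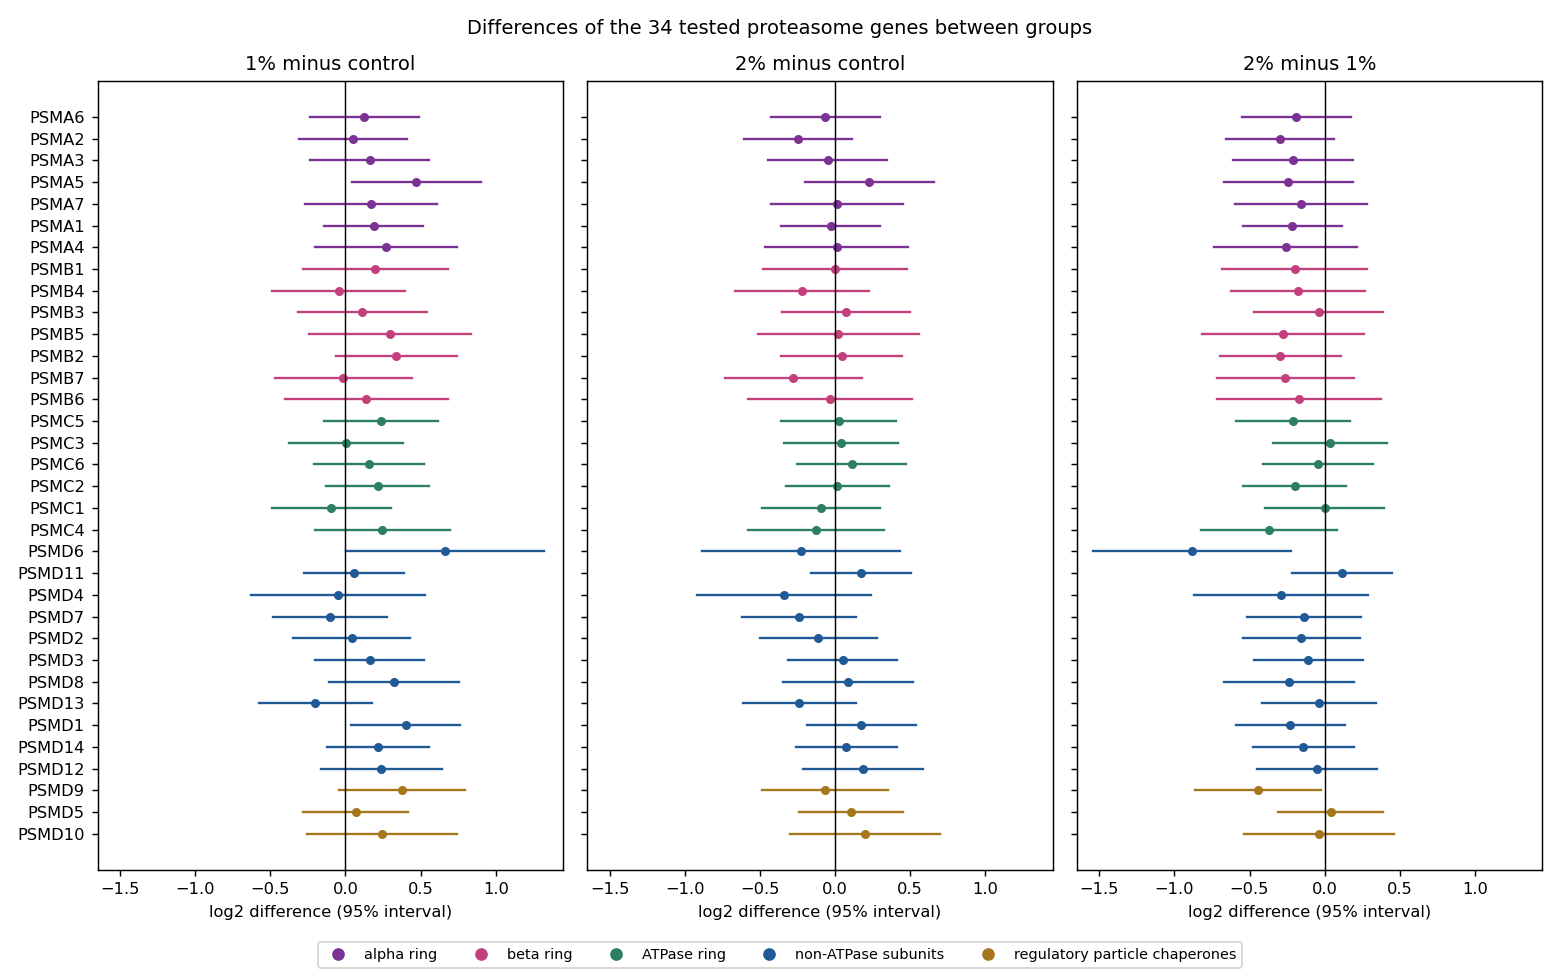
Log2 differences (points) with 95% intervals (lines) of the 34 tested proteasome genes, coloured by role, for 1% minus control, 2% minus control and 2% minus 1%. At 1% 28 points lie above 0 and for 2% minus 1% 31 lie below it, while most intervals include 0.

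Genes that build, open or feed the proteasome were examined as a list of companions. Of 16 tested assembly factors, activators and loosely bound regulators, 0 passed in any comparison with limma. On the deposited scale 8 of 16 were above control at 1% and 8 of 16 at 2%, against 31.4% and 39.3% of all tested genes. The list medians lay 0.16 and 0.08 above those of all tested genes. PSME3, a nuclear activator of the core, stood at 31.7, 17.7 and 15.2 FPKM in controls, at 27.9, 27.9 and 33.9 at 1% and at 22.9, 24.2 and 20.7 at 2% (1% against control 0.52, adjusted p = 0.358, limma). Its order of libraries was like that of PSMD6, with control 1 high and the other controls low. PSME2, a subunit of the interferon-induced activator, was at 65.5, 36.9 and 34.3 FPKM in controls, 34.6, 34 and 34.3 at 1% and 32.3, 30.5 and 32.2 at 2%. Every 2% library lay below every control for PSME2 (-0.45, adjusted p = 0.950, limma). PSME4, an activator that binds the core without ubiquitin, ranged from 7.42 to 11 FPKM with overlapping groups. POMP, the maturation factor of the core, was not analysed here.

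Ubiquitin was represented by UBB, an abundant gene that encodes it in tandem copies. UBB stood at 378, 354 and 405 FPKM in controls, at 415, 346 and 443 at 1% and at 389, 409 and 434 at 2%, with overlapping groups. Among 18 tested genes for ubiquitin, its activation, shuttles and unfolding, 0 passed in any comparison with limma, and the medians were -0.01 at 1% and -0.07 at 2% against control. These lay 0.13 and -0.01 from the medians of all tested genes. DDI2, the protease that activates the transcription factor NFE2L1, was at 29.6, 31.9 and 26.4 FPKM in controls, 21.1, 26.0 and 19.8 at 1% and 25.7, 24.3 and 20 at 2%. All dosed libraries lay below all controls, with log2 differences of -0.38 (adjusted p = 0.333) and -0.32 (adjusted p = 0.950, limma). ZFAND2A, a heat-inducible proteasome-binding protein, stood at 16.2, 6.41 and 6.96 FPKM in controls, at 19.1, 11.7 and 25.6 at 1% and at 5.70, 15.6 and 5.83 at 2%. Control 1 and library 2 at 2% again stood above the rest of their groups. FAF2, a cofactor of membrane protein extraction, ranged from 8.20 to 12.8 FPKM.

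NFE2L1, which drives proteasome genes in mammalian cells when the enzyme is inhibited, stood at 44.6, 52.3 and 47.0 FPKM in controls, at 40.3, 44.7 and 38.6 at 1% and at 45.7, 36.9 and 48.2 at 2%. Its log2 differences were -0.21 at 1% (adjusted p = 0.530) and -0.14 at 2% (adjusted p = 0.954, limma), and control 2, low for most subunits, was the highest library for this gene. NFE2L2, its stress-responsive relative, was at 24.0, 23.5 and 21.4 FPKM in controls, 20.8, 23.2 and 23.0 at 1% and 30.2, 23.5 and 37.4 at 2% (2% against control 0.36, adjusted p = 0.950, limma). Of the 6 tested genes on the list for transcription of the proteasome, 0 passed in any comparison.

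The interferon-induced catalytic subunits PSMB8, PSMB9 and PSMB10 had log2 differences of -0.62, -0.94 and -0.60 at 1% against control, and none passed (adjusted p = 0.298, 0.261 and 0.329, limma; all 0.95 at 2%). PSMB9 stood at 20.9, 15.3 and 11.8 FPKM in controls, at 10.6, 5.19 and 8.11 at 1% and at 9.58, 10.8 and 12.7 at 2%. The ratio of PSMB8 to PSMB5 was 0.491 ± 0.133 in controls, 0.252 ± 0.072 at 1% and 0.353 ± 0.092 at 2%, that of PSMB9 to PSMB6 0.547 ± 0.236, 0.233 ± 0.063 and 0.370 ± 0.055, and that of PSMB10 to PSMB7 0.541 ± 0.167, 0.345 ± 0.075 and 0.486 ± 0.126 (SD, n = 3). The first 2 ratios were lower in every 1% library than in every control, and the difference in ratio was not tested. Without library 3 at 1% the mean ratios at 1% were 0.28, 0.227 and 0.307. The T and NK cell markers described above were lower at 1% as well, and their part in these values was not tested.

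Folding machines were set beside the proteasome because they too handle nascent and damaged proteins. At 1%, 7 of 8 subunits of the cytosolic chaperonin TRiC were above control (median 0.24), as were 12 of 17 heat shock chaperones (0.08) and 23 of 24 genes of endoplasmic reticulum folding (0.55). These medians lay 0.38, 0.22 and 0.69 above that of all tested genes. At an unadjusted p under 0.05 there was 1 TRiC gene higher, 1 heat shock gene higher and 1 lower, and 9 endoplasmic reticulum genes higher, where 2.11% of all tested genes were higher and 12.8% lower. None of the 3 lists had a gene past the adjusted threshold with limma. Without library 3 at 1% the medians were 0.17, 0.04 and 0.29, with 20 of 24 endoplasmic reticulum genes above control and 1 at an unadjusted p under 0.05. In that fit 0.807% of all tested genes were higher and 6.34% lower at this threshold. Library by library, the median deviation of TRiC genes was 0.196, -0.304 and -0.193 in controls, 0.140, -0.025 and 0.334 at 1% and -0.073, -0.060 and 0.044 at 2%. TRiC thus had control 1 and library 3 at 1% high and control 2 lowest, as the proteasome genes did. So did the heat shock chaperones, at 0.385, -0.334 and -0.199 in controls, 0.101, -0.048 and 0.311 at 1% and -0.207, 0.009 and -0.024 at 2%. For endoplasmic reticulum genes the values were 0.190, -0.358 and -0.639, then -0.158, 0.365 and 0.807, then -0.317, 0.004 and 0.130. Their lowest library was control 3 and not control 2. The difference between these lists and the proteasome genes was not tested.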

How the data were processed

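The authors deposited 1 table of FPKM per gene for 9 libraries, per the file headers. No aligner, counter, annotation or strand setting is named by a source used here. GRCm38 and mm10, both mouse builds, stand in the submitters' processing notes, although the gene names are sheep names. Coordinates are therefore not given. All 36 members matched the sheep RefSeq table (ARS-UI_Ramb_v3.0) by symbol. Reads were recovered from the steps between FPKM values: all 17402 genes above 0 in at least 2 libraries gave whole reads within 0.01, whereas 728 genes detected in just 1 library could not be converted. Tests used limma (version 3.58.1, run under R 4.3.3) on log2(FPKM + 1), which understates changes of low genes, for 11944 genes with at least 1 FPKM in at least 3 libraries. A single fit held all 9 libraries, and variances were moderated by empirical Bayes with a trend on intensity. P-values are two-sided and adjusted by the Benjamini-Hochberg method over all tested genes at a threshold of 0.05. The fit was tested on simulated data. Every member may be named, and library values are given for the catalytic subunits, PSMD4, PSMD11 and PSMD14, the highest and lowest gene of each role, in each comparison the 3 members in either direction whose p was smallest, a set of companions named in the rule, and 2 companions in either direction by the same measure. Some companions are not reported here. Members and lists were chosen with earlier results of these data known. Alternatives covered the added constant, filter, scaling, fit, replicate block, recovered reads, the library with conflicting labels and each library left out. Tables were handled with pandas 2.3.3 and numpy 2.4.6 under Python 3.11.15, and plots drawn with matplotlib 3.10.9.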

Additional observations from a re-analysis of the deposited data

How the results depend on the processing

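In each of the 3 comparisons 0 proteasome genes had an adjusted p under 0.05 in limma, or voom for the recovered reads, under all 11 alternatives and with each of the 9 libraries left out. The median log2 difference at 1% was 0.321 after median-ratio scaling, and 0.071 to 0.261 with a library left out. At 2% the median was -0.088 to 0.099 with a library left out, and for 2% against 1% -0.259 to -0.148. The count of genes at an unadjusted p under 0.05 at 1%, 3 as reported, was 11 after median-ratio scaling and 7 after quantile scaling, all higher. Of all tested genes 7.31% were higher and 6.46% lower after the first scaling, and 6.97% and 5.88% after the second. The count was 0 in the fit of the 2 groups alone (1.52% of all tested genes higher, 9.95% lower). It was 0 with library 3 at 1% placed at 2% (0.578% and 4.16%). With a library left out it was 0 to 8 (8 without control 1), where 0.807% to 6.03% were higher and 6.34% to 17.2% lower. For 2% against 1% the count of 2 was 7 after median-ratio scaling, all lower (3.74% of all tested genes lower, 4.14% higher). This count was 0 with library 3 at 1% placed at 2% (0.98% lower, 1.17% higher). It was 1 to 3 with a library left out (0.769% to 2.18% lower, 3.27% to 9.75% higher). At 2% against control it was 0 to 1 over all these settings, where 3.27% to 8.74% of all tested genes were past the threshold. With the replicate number of the titles as a block, the count was 0 at 1% (1.47% of all tested genes higher, 11.3% lower). For 2% against 1% it was then 1 (1.26% lower, 5.52% higher). Same-numbered libraries did not regularly deviate together (correlations of -0.295 to 0.278 over 9 pairs, own number best in 4 of 18 cases). With 3 libraries per group, these values cannot settle whether the number marks a pairing. The count of genes whose groups do not overlap was recomputed after the data had been seen. It was 3 at 1% with that library at 2%, all higher (3.38% of all tested genes higher, 18.6% lower). For 2% against 1% it was then 4, all lower (3.68% lower, 6.75% higher). With each of the 9 libraries left out it was 1 to 19 at 1%, 3 to 11 at 2% and 10 to 18 for 2% against 1%. Leaving a library out can only keep or raise this count. By direction, 1 to 19 were higher and 0 to 2 lower at 1% (2.28% to 14.6% and 15.6% to 31.2% of all tested genes). At 2% these were 1 to 9 and 2 to 8 (2.6% to 16.0% and 8.02% to 17.4%). For 2% against 1% they were 0 to 1 and 10 to 18 (11.0% to 24.4% and 3.33% to 11.3%). The medians of the folding lists and the immunoproteasome ratios without library 3 at 1% were likewise added after the data had been seen. Of 1740 recomputed values of named genes, 80 changed sign, each from a value smaller than its standard error. The cause of these shifts was not tested.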
